A study of Homo sapiens with 6 samples.

Results

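The genes described here drive chromosome segregation and motor transport along microtubules. They are 79 of the 26902 rows of the deposited table of TPM, a transcript abundance scaled to a fixed total per library. The rows were taken by gene symbol alone: every kinesin heavy chain named KIF or KIFC, every gene named CENP plus 1 letter, the NDC80 complex, and a fixed set of spindle checkpoint, chromosomal passenger and mitotic regulator genes. No measured value entered this rule, but it was set with earlier results of these data known. Symbols of the same families for which no row matched, KIFC1, KNL1, CENPS and CENPX, are not members; KNL1, CENPS and CENPX appear under earlier symbols among the related genes near the end.

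Both groups were HMCB cells, an established human melanoma line that the labels give as Nras Q61K. Controls were transfected with the siRNA called siNC (3 libraries), and the treated group, siAHCYL1, with one that targets AHCYL1 (3 libraries); both were collected after 3 days. AHCYL1 is a relative of S-adenosylhomocysteine hydrolase that binds IP3 receptors, and the series asks how it promotes proliferation of NRAS-mutant melanoma cells. Separate cultures are not named for the replicates, which the labels describe as biological, so a p-value here reflects only the spread among these libraries, which may be technical. AHCYL1 itself stood at 8.56% of its control level, between 10.97 and 13.45 TPM against 131.09 to 150.02 TPM (limma log2 fold change -3.44, SE 0.096, adjusted p = 5.64e-08).

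A chromosome is moved in mitosis through its kinetochore. An inner layer of CENP proteins sits on centromere chromatin, and an outer layer, the NDC80 complex with KNL1 and the MIS12 complex, holds the microtubule ends. While any kinetochore is unattached, the spindle checkpoint proteins keep CDC20 from activating the anaphase-promoting complex, a ubiquitin ligase, which later has securin and cyclin B destroyed. Kinesins are ATP-driven motors: some build and shape the spindle or the midzone between the separating chromosomes, and others carry vesicles, mitochondria or ciliary cargo in cells that are not dividing. Many mitotic genes share a promoter element, the cell cycle genes homology region (CHR), through which the MuvB complexes repress them in early cell cycle phases and activate them before mitosis.

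Because TPM corrects for transcript length, levels can be compared between genes. The table keeps no read counts, so depth is unknown and counting error has no interval here. Each library held 13035 to 13189 genes at 1 TPM or more. Of the melanocytic markers, SOX10 was at 993 to 1050 TPM and MITF at 8.38 to 12.7 TPM, while TYR was listed at 0 in every library and MLANA was at most 0.79 TPM. Summed markers of epithelium (17.4 to 21.6 TPM over all libraries), fibroblasts (15.3 to 32.4), immune and blood cells (11.4 to 28.2) and endothelium (6.26 to 11.2) were low beside SOX10, with CDH1, KRT5, PDGFRA, CD3E, HBB and VWF at 0. The fibroblast sum was 15.3 to 17.9 TPM in siNC and 26.1 to 32.4 TPM in siAHCYL1, nearly all of it LUM, while PTPRC rose, COL1A1, HBA1 and KDR fell, and the melanocytic DCT fell from 11.4 ± 0.584 to 0.337 ± 0.249 TPM. Other melanocytic markers rose: mean S100B from 10.72 to 28.98 TPM, TYRP1 from 1.587 to 3.76 TPM and PMEL from 0.8767 to 1.827 TPM. Their limma adjusted p values were 9.74e-06, 0.00897 and 0.0484, in that order. SOX10 (limma adjusted p = 0.548) and MITF (0.342) showed no change past 0.05. The part of these marker genes in the results was not tested.

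The members, mitotic genes and transport kinesins together, did not move as a block. Of the 79 members, 69 reached 1 TPM in at least 3 libraries and were tested: 19 rose, 11 fell and 39 did not pass (limma with Benjamini-Hochberg adjustment over all 13266 genes tested, adjusted p under 0.05). That is 43.5% of the tested members, where 51.6% of all genes tested changed. The rises were 27.5% of tested members against 30.4% of all genes, and the falls 15.9% against 21.2%. The same shares of all genes are the background for the counts by role and by list below, which were not tested as sets. The groups did not overlap in 34 of 69 members (49.3%), against 59.2% of all genes; 20 were higher and 14 lower, where 34.7% and 24.5% of all genes were. The median log2 fold change was 0.10 over the members and 0.06 over all genes. Changes of 2-fold or more on the log2(TPM + 1) scale were found in 2 members, KIF1A and KIF21B, both lower, while 8.36% of all genes changed that much. KIF21B was the 1 tested member that met the filter through a single group, siNC, in which it is high, so its call is conditional on that group.

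Rises made up 63.3% of the changed members in the values as deposited. With quantile normalization they made up 41.4% (12 rises, 17 falls), and with median-of-ratios scaling there were 14 rises and 14 falls. Over all changed genes the share was 58.9% as deposited, 50.8% with median-of-ratios scaling and 48.1% with quantile normalization. The split between rises and falls therefore depends on the scaling. The calls of 17 members, KIF21B among them, held in every refit that tested them, of 14 made. KIF21B was tested in only 9 of these, none of which left out a siNC library. Where a member that did not pass is said below to have passed in some refits, each refit is named. A pass with a replicate block is named as such. Leaving out siNC replicate 2 left 11 rises and 8 falls among the members. In a bulk sample, a change in the share of cells in mitosis and a change in RNA per mitotic cell cannot be told apart.

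**Figure D1:**
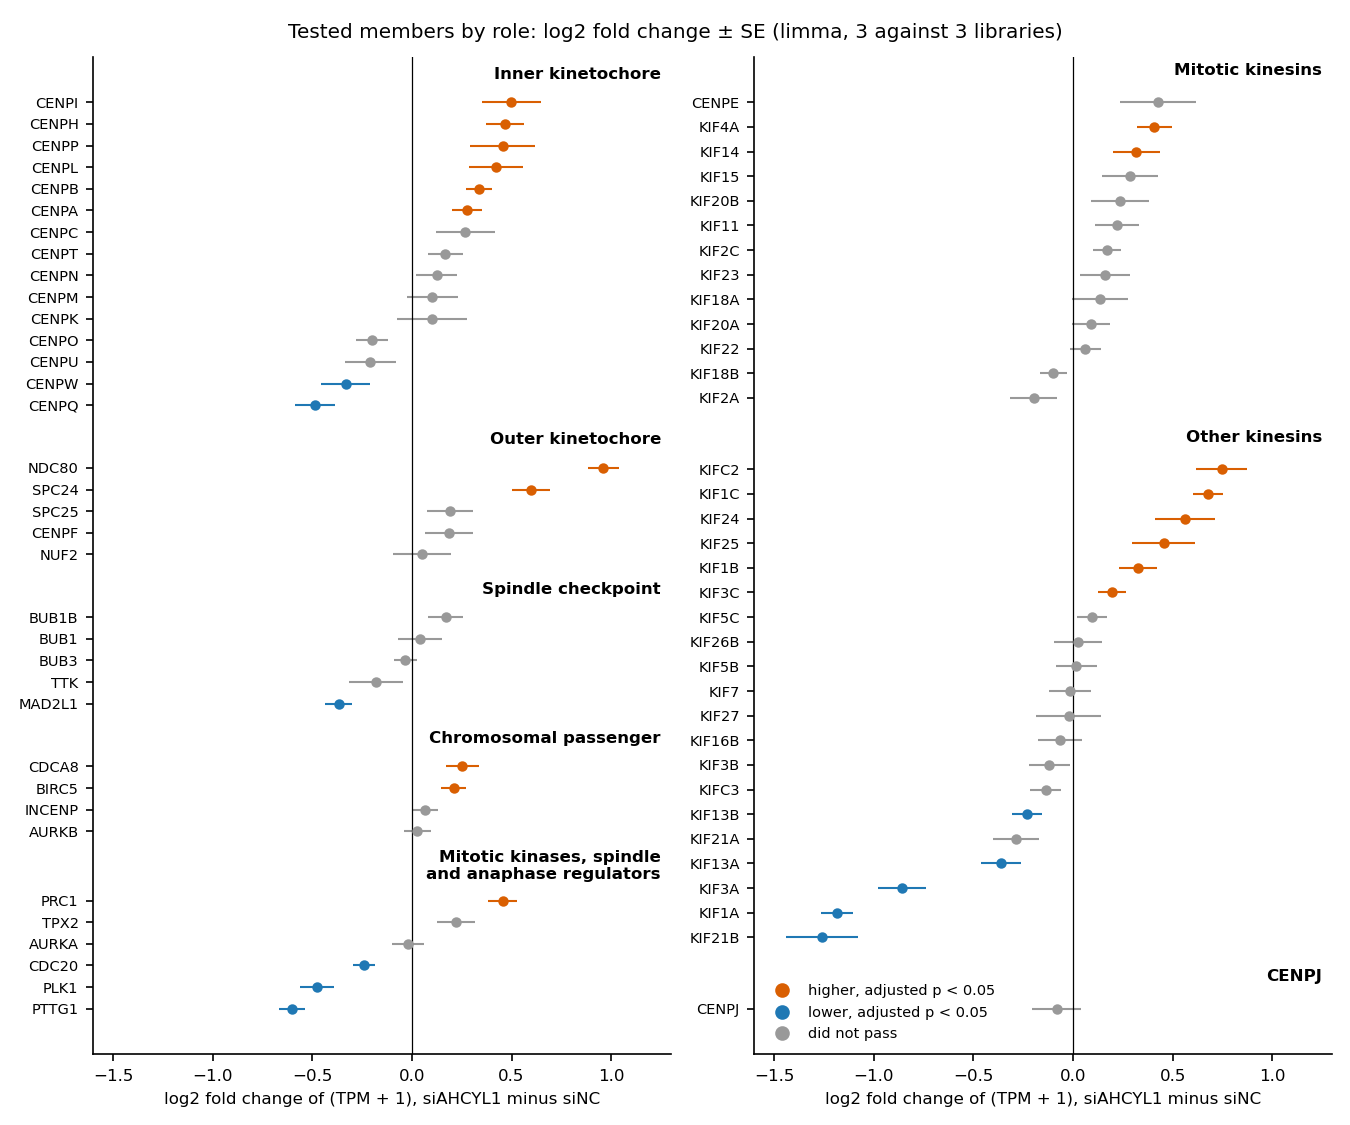
Log2 fold change of TPM + 1 (siAHCYL1 minus siNC, x axis) for the 69 tested members, grouped by role, with bars for the standard error from limma over 3 against 3 libraries; orange points rose, blue points fell and grey points did not pass. The points run from -1.26 (KIF21B) to 0.96 (NDC80), and within most roles they lie on both sides of 0.

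The core letters of the CHR are shown for the 6 changed members that carry them, because the same letters stood before genes that rose and genes that fell. The motif searched was TTTGAA on both strands, in the 250 bases before each RefSeq start (build GRCh38.p14). In the lines below, 30 bases are written 5′ to 3′ on the gene's strand and capitals mark the motif.
PRC1: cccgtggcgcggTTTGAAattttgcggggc
KIF4A: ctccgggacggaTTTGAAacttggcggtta
CENPA: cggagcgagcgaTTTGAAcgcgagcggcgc
CDCA8: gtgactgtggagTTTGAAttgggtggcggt
PLK1: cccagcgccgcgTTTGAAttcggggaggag
CDC20: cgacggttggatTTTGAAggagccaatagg
The first 4 genes rose after the AHCYL1 siRNA and the last 2 fell. The windows lie at chr15:90994538-90994567 (minus strand), chrX:70290058-70290087, chr2:26786026-26786055, chr1:37692481-37692510, chr16:23678848-23678877 and chr1:43358904-43358933 (all plus strand), in the order of the lines. The motif's first base was at -20 in PRC1, -34 in KIF4A, -18 in CENPA, -23 in CDCA8, -29 in PLK1 and -65 in CDC20, counted from the base before the start as -1.

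BUB1B is shown as 1 of 9 members that carry these letters and did not pass the test.
BUB1B: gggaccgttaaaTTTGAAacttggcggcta
The window lies at chr15:40161034-40161063 on the plus strand, with the motif's first base at -23. Of the 79 members, 62 had a promoter entry, and 54 of these were tested. In 42 of the 62, the sequence held the start of the GENCODE transcript it was compared with. Positions from the start are less sure in the rest. TTTGAA was found in 27.8% of the 54, against 8.09% of the 9977 promoters of tested genes and 13.6% of all 27305 promoters. It was found in 4 of 15 risen members, 2 of 9 fallen members and 9 of 30 that did not pass. Among tested members outside the class of transport and other kinesins it was found in 14 of 40, and in 1 of 14 within that class. CCAAT, also searched on both strands and without regard to overlap with TTTGAA, stood in 59.3% of the 54 tested members and in 35.5% of the promoters of tested genes. It was found in 8 of 15 risen and 6 of 9 fallen members. A match is only a run of letters and does not show that a factor binds there.

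The outer kinetochore held the largest rise of any member. NDC80, on chromosome 18, positions 2571557 to 2616635 (GRCh38.p14, as for all gene positions here), encodes the microtubule-binding subunit after which the complex is named. It had 36.62, 34.20 and 31.65 TPM in siNC and 70.20, 67.48 and 64.47 TPM in siAHCYL1. The lowest siAHCYL1 library was well above the highest control, and the mean rose 1.97-fold, from 34.2 ± 2.49 to 67.4 ± 2.87 TPM (SD, n = 3; log2 fold change on the TPM + 1 scale, here and below in parentheses, 0.96, SE 0.079, limma adjusted p = 1.46e-05). SPC24, a subunit of the same complex that faces the chromosome, had 19.50, 17.77 and 21.69 TPM against 29.39, 29.20 and 31.85 TPM. It rose 1.53-fold with no overlap between the groups (log2 fold change 0.60, SE 0.095, adjusted p = 0.000732). Both calls held in every refit.

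The partners of these subunits did not pass in the reported fit. NUF2, which pairs with NDC80 in a coiled coil, had 83.31, 64.86 and 52.18 TPM against 72.73, 66.39 and 65.15 TPM, so all siAHCYL1 libraries lay inside the control range (log2 fold change 0.05, SE 0.14, adjusted p = 0.787). SPC25, the partner of SPC24, had 53.44, 45.36 and 41.45 TPM against 60.23, 53.21 and 47.02 TPM (0.19, adjusted p = 0.193). CENPF, a large coiled-coil protein of the outer kinetochore and nuclear envelope, had 111.31, 103.90 and 89.56 TPM against 139.06, 106.48 and 103.62 TPM (0.19, adjusted p = 0.221). Its groups overlapped, and replicate 1 was the highest library in both. With a replicate block, SPC25 (adjusted p = 0.0166) and CENPF (0.031) passed as higher, and 4 of the 5 outer kinetochore genes rose. NUF2 passed in no refit. The ratio of NDC80 to NUF2 was 0.44, 0.527 and 0.607 in siNC and 0.965, 1.02 and 0.99 in siAHCYL1. NDC80 thus stood below NUF2 in every control library and near equal TPM with it in siAHCYL1, with no overlap between the groups (exact permutation test, two-sided, p = 0.1, the smallest that 3 against 3 allows). The ratio of SPC24 to SPC25 overlapped between the groups (mean 0.427 ± 0.085 against 0.571 ± 0.097, n = 3; exact permutation p = 0.2).

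In the inner kinetochore and centromere chromatin, 6 of 15 members rose and 2 fell, with a median log2 fold change of 0.17. Of all genes tested, 30.4% rose and 21.2% fell, with a median of 0.06. With median-of-ratios scaling 5 rose and 3 fell, with quantile normalization 4 and 4, and without siNC replicate 2 the counts were 2 and 1. CENPB, which binds a repeated DNA box in centromeric satellite DNA, had 113.62, 116.75 and 113.24 TPM in siNC and 137.41, 144.10 and 153.74 TPM in siAHCYL1. It rose 1.27-fold with no overlap (log2 fold change 0.34, SE 0.064, adjusted p = 0.00194). CENPH, a subunit of the constitutive centromere-associated network, had 53.66, 47.84 and 44.90 TPM against 70.60, 72.12 and 60.85 TPM. It rose 1.39-fold, also without overlap (0.47, SE 0.094, adjusted p = 0.00262). The calls of CENPB and CENPH held in every refit.

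CENPA, the histone H3 variant that marks the centromere, had 41.48, 41.15 and 45.68 TPM against 50.16, 54.63 and 51.08 TPM. The groups did not overlap and the mean rose 1.21-fold (0.28, SE 0.076, adjusted p = 0.0134). Its call was lost under median-of-ratios scaling (adjusted p = 0.0555), quantile normalization (0.105), without siNC replicate 2 (0.0597) and without siAHCYL1 replicate 2 (0.0681). CENPI, a network subunit that works with CENPH and CENPK, had 15.38, 10.15 and 12.02 TPM against 19.41, 18.47 and 15.91 TPM (0.50, SE 0.15, adjusted p = 0.0179). It did not hold without siNC replicate 2 (0.0685) or siAHCYL1 replicate 2 (0.0509). CENPL, which binds CENPN, had 12.04, 9.88 and 8.95 TPM against 16.22, 12.80 and 13.26 TPM (0.42, SE 0.14, adjusted p = 0.0264). Its call was lost with no filter (0.0557), without siNC replicate 2 (0.0788) or 3 (0.0864) and without siAHCYL1 replicate 1 (0.0728). The groups did not overlap for either gene.

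CENPP, a subunit of the same network, had 5.16, 4.13 and 5.31 TPM against 8.69, 6.90 and 5.72 TPM (0.46, SE 0.16, adjusted p = 0.0401). Of its annotated exon bases, 30.2% overlap IPPK on the other strand, which had a mean of 21.35 TPM in siNC and 20.32 TPM in siAHCYL1, and these libraries do not separate strands. Its call was lost with no filter (0.0804), with quantile normalization (0.0585), without siNC replicate 1 (0.0564) or 2 (0.137), without siAHCYL1 replicate 1 (0.113) or 2 (0.0817) and without replicate 1 of both groups (0.11).

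The 2 inner kinetochore genes that fell were CENPQ and CENPW. CENPQ, a subunit of the CENPO, CENPP, CENPQ and CENPU group, had 25.55, 26.84 and 23.36 TPM in siNC and 19.89, 16.80 and 16.59 TPM in siAHCYL1. All siAHCYL1 libraries lay below all controls, and the mean was 1.42-fold lower (-0.49, SE 0.10, adjusted p = 0.00326), a call that held in every refit. CENPW, a histone-fold protein that pairs with CENPT, had 9.27, 9.76 and 7.82 TPM against 6.94, 7.41 and 6.30 TPM (-0.33, SE 0.12, adjusted p = 0.0471). It did not hold with no filter (0.0816), without siNC replicate 1 (0.115) or 2 (0.16), without siAHCYL1 replicate 1 (0.0659), 2 (0.0654) or 3 (0.139), or without replicate 1 of both groups (0.114).

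The other 7 inner kinetochore members did not pass. CENPU had 93.60, 84.19 and 74.05 TPM against 88.25, 65.23 and 65.26 TPM (-0.21, adjusted p = 0.199). It passed without siAHCYL1 replicate 1 (-0.35, adjusted p = 0.0171), when both first replicates were left out (-0.27, adjusted p = 0.0169) and with quantile normalization (-0.31, adjusted p = 0.041). CENPU also passed with a replicate block (adjusted p = 0.0233). CENPO had 40.84, 37.96 and 42.22 TPM against 35.53, 36.49 and 32.96 TPM (-0.20, adjusted p = 0.0596). Its groups did not overlap, and it passed under median-of-ratios scaling (adjusted p = 0.0164), quantile normalization (0.01) and with a replicate block (0.0458). Of CENPO exon bases, 22.9% overlap ADCY3 on the other strand (means of 46.89 TPM in siNC and 62.24 TPM in siAHCYL1). For CENPU, 17.3% overlap PRIMPOL (7.63 and 14.11 TPM), and for CENPN, 14.5% overlap CMC2 (91.49 and 117.55 TPM), also on the other strand. CENPT had 29.57, 34.30 and 30.20 TPM against 32.95, 37.68 and 35.35 TPM (0.17, adjusted p = 0.144), and passed only with a replicate block (0.0473). CENPC (0.27), the scaffold that binds the CENPA nucleosome, passed only when siAHCYL1 replicate 2 was left out (adjusted p = 0.0212). CENPK (0.10), CENPM (0.10) and CENPN (0.13) overlapped between the groups and passed in no refit. CENPJ, a centriole protein that shares the CENP name, had 18.25, 16.87 and 14.29 TPM against 17.82, 14.45 and 14.23 TPM (-0.08, adjusted p = 0.606), and CENPV was at most 0.15 TPM.

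**Figure D2:**
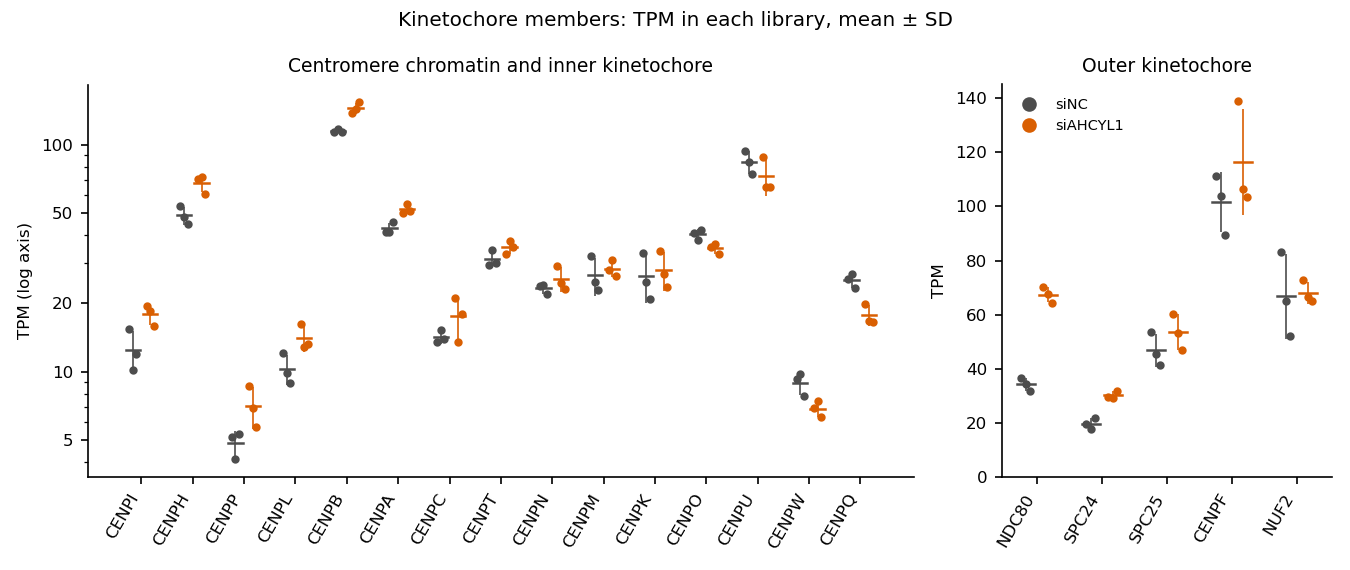
TPM in each library for inner kinetochore members (left, log axis) and outer kinetochore members (right, linear axis from 0); grey points are siNC and orange points siAHCYL1 libraries, with lines for the mean and SD (n = 3). NDC80 stands at 64.47 to 70.20 TPM in siAHCYL1 against 31.65 to 36.62 TPM in siNC, while the 2 groups of NUF2 lie on top of each other.

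Of the 5 spindle checkpoint genes, MAD2L1 fell and the others did not pass. MAD2L1, on chromosome 4, positions 120055623 to 120066848, encodes the protein that an unattached kinetochore converts into an inhibitor of CDC20. It had 242.47, 208.92 and 215.35 TPM in siNC and 170.75, 175.12 and 169.09 TPM in siAHCYL1. The siAHCYL1 libraries were tightly grouped below all controls, and the mean was 1.29-fold lower (222 ± 17.8 to 172 ± 3.11 TPM, -0.37, SE 0.069, adjusted p = 0.00182), and its call held in every refit.

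The kinases and scaffolds of the checkpoint showed no call in the reported fit. BUB1, a kinase that marks centromeric histone H2A, had 89.23, 84.02 and 79.58 TPM against 104.65, 79.26 and 78.50 TPM (0.04, adjusted p = 0.775). BUB1B, the CDC20-binding subunit BUBR1, had 67.74, 65.54 and 59.15 TPM against 79.03, 72.39 and 65.74 TPM (0.17, adjusted p = 0.13). It passed only with a replicate block (adjusted p = 0.02). BUB3, which docks both on KNL1, had 135.30, 135.09 and 142.22 TPM against 137.16, 130.35 and 135.84 TPM (-0.03, adjusted p = 0.672). TTK, the kinase MPS1 that starts checkpoint signalling, had 61.01, 56.13 and 49.14 TPM against 60.32, 41.61 and 45.69 TPM (-0.18, adjusted p = 0.29). TTK passed without siAHCYL1 replicate 1 (-0.33, adjusted p = 0.0244) and when both first replicates were left out (-0.26, adjusted p = 0.0352). In all 4 the groups overlapped. The ratio of MAD2L1 to BUB1B was 3.58, 3.19 and 3.64 in siNC and 2.16, 2.42 and 2.57 in siAHCYL1, without overlap (exact permutation p = 0.1).

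The regulators of mitotic entry and anaphase onset held the most abundant members, and 3 of the 6 fell. PTTG1, securin, which holds separase inactive until anaphase, was the most abundant member in both groups. It lies on chromosome 5, positions 160421855 to 160428744, and had 437.79, 396.85 and 418.17 TPM against 293.95, 266.21 and 264.20 TPM. The mean was 1.52-fold lower, with a wide gap between the groups (418 ± 20.5 to 275 ± 16.6 TPM, -0.60, SE 0.066, adjusted p = 7.7e-05). The near-identical copies PTTG2 and PTTG3P were listed at 0 in every library.

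PLK1, the polo-like kinase of mitotic entry and spindle assembly, had 311.11, 276.67 and 257.53 TPM against 219.01, 198.53 and 188.48 TPM. It was 1.39-fold lower, and its highest siAHCYL1 library lay below its lowest control (-0.48, SE 0.085, adjusted p = 0.00133). CDC20, the activator of the anaphase-promoting complex, had 293.39, 277.69 and 280.02 TPM against 240.42, 242.21 and 238.00 TPM. Its siAHCYL1 values were close together and below every control (-0.24, SE 0.055, adjusted p = 0.00527). The falls of PTTG1, PLK1 and CDC20 held in every refit.

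PRC1, which bundles antiparallel microtubules in the spindle midzone, went the other way. It had 100.14, 98.79 and 90.28 TPM in siNC and 141.40, 130.61 and 125.81 TPM in siAHCYL1. The mean rose 1.38-fold with no overlap (0.46, SE 0.072, adjusted p = 0.000665), also in every refit. Of its annotated exon bases, 65.2% are shared with a same-strand gene model, AC068831.7, which is not analysed here, and reads there may have been split.

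The kinase AURKA and its activator TPX2 did not pass. AURKA had 195.17, 177.25 and 165.13 TPM against 188.23, 178.10 and 163.68 TPM, near-equal in the 2 groups (-0.02, SE 0.080, adjusted p = 0.858). TPX2, which brings AURKA to spindle microtubules, had 223.59, 198.35 and 180.32 TPM against 262.84, 222.28 and 217.09 TPM (0.22, SE 0.097, adjusted p = 0.0842). It passed without siNC replicate 1 (0.30, adjusted p = 0.0257), with a replicate block (0.22, adjusted p = 0.00287) and when both first replicates were left out (0.21, adjusted p = 0.018). The ratio of AURKA to TPX2 was 0.873, 0.894 and 0.916 in siNC and 0.716, 0.801 and 0.754 in siAHCYL1, without overlap (exact permutation p = 0.1).

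In the chromosomal passenger complex, which corrects faulty attachments and later directs cytokinesis, 2 of 4 members rose (1 with median-of-ratios scaling, 0 with quantile normalization). CDCA8, borealin, had 92.78, 87.37 and 76.26 TPM against 104.91, 102.53 and 97.84 TPM (0.25, SE 0.082, adjusted p = 0.0268). BIRC5, survivin, had 95.92, 88.77 and 90.91 TPM against 103.75, 110.80 and 104.44 TPM (0.21, SE 0.064, adjusted p = 0.0219). Neither gene's groups overlapped, and both rises were small, 1.19-fold and 1.16-fold. The call of CDCA8 was lost with quantile normalization (0.0979), with robust moderation (0.058), without siNC replicate 2 (0.0583) or 3 (0.0911) and without siAHCYL1 replicate 1 (0.0609) or 2 (0.0771). That of BIRC5 was lost with median-of-ratios scaling (0.0904), quantile normalization (0.185), robust moderation (0.0516), without siNC replicate 2 (0.0941) or 3 (0.0596) and without siAHCYL1 replicate 2 (0.107). The kinase AURKB had 104.33, 98.89 and 113.40 TPM against 106.76, 110.36 and 105.32 TPM (0.03, adjusted p = 0.758). Its scaffold INCENP had 80.29, 81.17 and 78.37 TPM against 81.23, 87.91 and 81.96 TPM (0.06, adjusted p = 0.424). Neither passed in any refit.

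**Figure D3:**
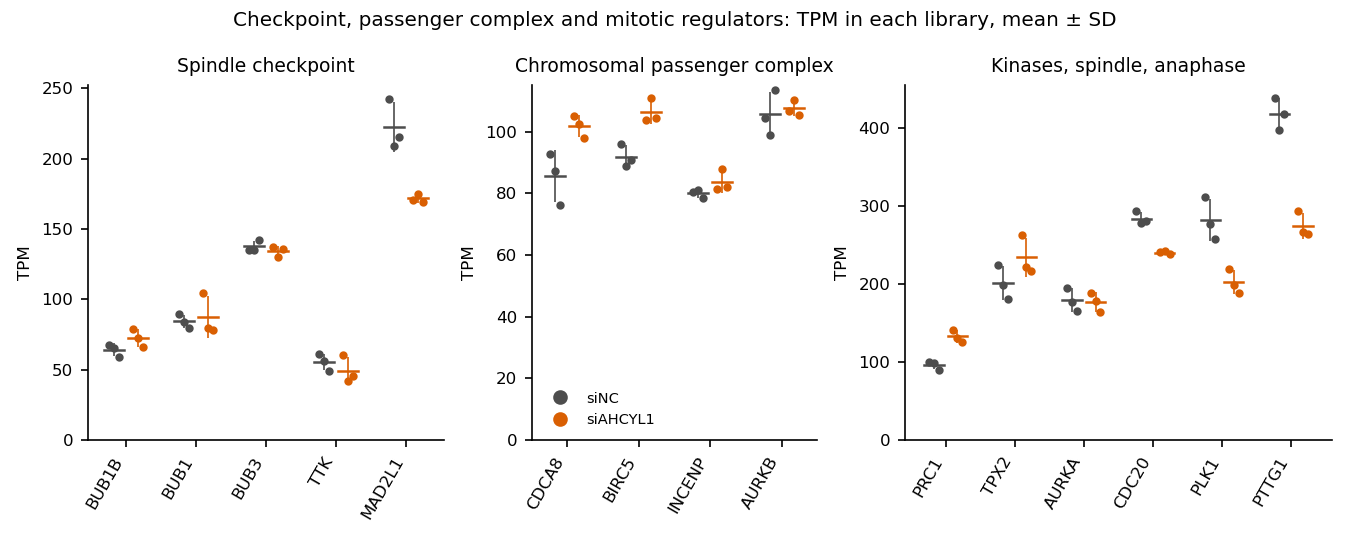
TPM in each library (linear axes from 0) for spindle checkpoint genes, the chromosomal passenger complex, and mitotic kinases with spindle and anaphase regulators; grey points are siNC and orange points siAHCYL1 libraries, with lines for the mean and SD (n = 3). MAD2L1, CDC20, PLK1 and PTTG1 lie lower in all siAHCYL1 libraries, and PRC1, CDCA8 and BIRC5 higher.

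Of 13 tested mitotic kinesins, 2 rose and 0 fell, with a median log2 fold change of 0.17. With quantile normalization 1 rose and 2 fell, and with a replicate block 6 rose and 1 fell. KIF4A, a chromosome-arm motor that also works with PRC1 at the midzone, had 54.15, 52.07 and 46.42 TPM in siNC and 74.12, 67.43 and 62.16 TPM in siAHCYL1. It rose 1.33-fold without overlap (0.41, SE 0.089, adjusted p = 0.00419), in every refit, and its intronless copy KIF4B was at most 0.13 TPM. KIF14, a motor that recruits citron kinase in cytokinesis, had 30.54, 27.48 and 25.48 TPM against 41.48, 32.19 and 31.69 TPM. It rose 1.26-fold and the groups did not overlap (0.32, SE 0.12, adjusted p = 0.0465). Its call was lost with no filter (0.0814), median-of-ratios scaling (0.0502), quantile normalization (0.0727), robust moderation (0.0719), without siNC replicate 2 (0.112) or 3 (0.132) and without siAHCYL1 replicate 1 (0.115).

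The most abundant mitotic kinesins did not pass. KIF22, the chromokinesin Kid, had 151.83, 145.61 and 133.83 TPM against 161.68, 150.48 and 138.38 TPM (0.06, adjusted p = 0.532). KIF2C, the depolymerase MCAK, had 106.39, 105.80 and 96.38 TPM against 122.94, 115.62 and 109.07 TPM (0.17, adjusted p = 0.0735), with no overlap. KIF20A, a motor of cytokinesis, had 82.81, 81.55 and 70.83 TPM against 93.63, 80.02 and 77.24 TPM (0.09, adjusted p = 0.443). The bipolar spindle motor KIF11 (0.22), its helper KIF15 (0.29), KIF20B (0.24), the midzone motor KIF23 (0.16) and KIF18A (0.13), which limits chromosome oscillation, did not pass. With a replicate block KIF2C (adjusted p = 0.0129), KIF11 (0.0399) and KIF15 (0.0184) passed, all higher. CENPE, the motor that carries chromosomes to the spindle equator, had 22.86, 20.13 and 16.22 TPM against 36.43, 24.13 and 21.33 TPM (0.42, SE 0.19, adjusted p = 0.0881). It passed without siAHCYL1 replicate 3 (0.58, adjusted p = 0.0333), which left replicate 1, the highest library, as one of 2. CENPE also passed with a replicate block (0.42, adjusted p = 0.00584). The values below 0 belonged to KIF18B (-0.10), whose groups did not overlap and which passed with quantile normalization (-0.20, adjusted p = 0.0276), and KIF2A (-0.20), which passed without siAHCYL1 replicate 1 (-0.31, adjusted p = 0.043) and with quantile normalization (-0.30, adjusted p = 0.0324). KIF2A also passed with a replicate block (adjusted p = 0.0169).

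Replicate 1 was the highest library in both groups in 37 of the 69 tested members (53.6%), against 33.5% of all genes tested. CENPE, KIF11, KIF14, KIF15, KIF20B, CENPF and TPX2 were among these 37. On the second principal component of all tested genes, the first replicates of the groups had scores of 15.04 and 17.57 and the other libraries scores below 0. Without replicate 1 of both groups, a fit chosen after seeing the data, 17 members rose and 12 fell. What this shared difference adds to the other calls was not tested.

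The kinesins that serve transport, cilia and other tasks held the largest falls. Of the 20 tested, 6 rose and 5 fell, where 30.4% and 21.2% of all genes did. The median log2 fold change was -0.02 (-0.07 with median-of-ratios scaling and -0.10 with quantile normalization, each with 4 rises and 7 falls). KIF1A, a motor of synaptic and dense-core vesicles best known from neurons, lies on chromosome 2, positions 240713767 to 240821403. It had 39.31, 41.00 and 41.25 TPM in siNC and 18.23, 16.93 and 16.68 TPM in siAHCYL1. Both groups were tight and far apart, and the mean was 2.34-fold lower (40.5 ± 1.06 to 17.3 ± 0.832 TPM, -1.18, SE 0.079, adjusted p = 4.67e-06).

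The related vesicle motors moved the other way. KIF1C, on chromosome 17, positions 4997950 to 5028401, carries integrin and dense-core vesicles. It had 40.19, 40.41 and 36.67 TPM against 61.46, 61.27 and 66.62 TPM and rose 1.61-fold with no overlap (0.68, SE 0.075, adjusted p = 8.19e-05). KIF1B, a motor of mitochondria and synaptic vesicle precursors, had 23.45, 25.88 and 24.94 TPM against 35.20, 29.94 and 29.07 TPM (0.33, SE 0.095, adjusted p = 0.017). It rose 1.27-fold without overlap, and its call was lost without replicate 1 of both groups (0.21, adjusted p = 0.0574). The ratio of KIF1A to KIF1C was 0.978, 1.01 and 1.12 in siNC and 0.297, 0.276 and 0.25 in siAHCYL1. The 2 motors thus had near-equal TPM in the controls, and KIF1A lay far below KIF1C after the AHCYL1 siRNA (exact permutation p = 0.1).

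KIF3A, KIF3B and KIF3C are heavy chains of the kinesin-2 motor of cilia and vesicles, in which KIF3A pairs with either KIF3B or KIF3C. KIF3A had 26.50, 26.49 and 24.04 TPM against 16.46, 12.85 and 12.12 TPM and was 1.86-fold lower with no overlap (-0.86, SE 0.12, adjusted p = 0.000321). KIF3B had 46.17, 40.13 and 39.12 TPM against 43.90, 34.65 and 37.02 TPM, short of the threshold (-0.12, adjusted p = 0.372). KIF3C had 45.98, 47.14 and 45.60 TPM against 55.67, 53.06 and 50.79 TPM and rose 1.15-fold without overlap (0.20, SE 0.070, adjusted p = 0.039). The call of KIF3C was lost in 9 of 14 refits: with median-of-ratios scaling (0.0755), quantile normalization (0.215), robust moderation (0.0594), without siNC replicate 1 (0.0772), 2 (0.0846) or 3 (0.0982), without siAHCYL1 replicate 1 (0.0787) or 2 (0.111), and without replicate 1 of both groups (0.0832). The ratio of KIF3A to KIF3B was 0.574, 0.66 and 0.615 in siNC and 0.375, 0.371 and 0.327 in siAHCYL1. That of KIF3C to KIF3B was 0.996, 1.17 and 1.17 against 1.27, 1.53 and 1.37. Neither ratio overlapped between the groups (exact permutation p = 0.1 for each).

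KIFC2, a minus-end-directed motor best known from axons, had 58.53, 74.26 and 80.77 TPM in siNC and 103.07, 130.27 and 125.61 TPM in siAHCYL1. It rose 1.68-fold, and its lowest siAHCYL1 library lay above its highest control (0.75, SE 0.13, adjusted p = 0.00105). FOXH1 on the other strand overlaps 21.7% of its exon bases and was at means of 0.23 and 0.53 TPM. KIF24, which caps mother centrioles and restrains cilium formation, had 4.71, 3.77 and 4.85 TPM against 7.77, 7.59 and 5.78 TPM (0.56, SE 0.15, adjusted p = 0.0117), without overlap. KIF25 had 4.65, 6.10 and 4.21 TPM against 6.04, 8.01 and 7.48 TPM (0.45, SE 0.16, adjusted p = 0.0364), and its groups overlapped. The call of KIF25 was lost with no filter (0.0738), median-of-ratios scaling (0.0638), quantile normalization (0.0758), without siNC replicate 1 (0.0881) or 3 (0.115) and without siAHCYL1 replicate 2 (0.124) or 3 (0.0946). Those of KIF1A, KIF1C, KIF3A, KIFC2 and KIF24 held in every refit.

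The remaining falls were in KIF13A, KIF13B and KIF21B. KIF13A, an endosome motor that moves cargo to melanosomes in pigment cells, had 29.55, 27.21 and 24.60 TPM against 23.01, 19.49 and 20.22 TPM (-0.36, SE 0.10, adjusted p = 0.0146). Its groups did not overlap, and its call was lost without siAHCYL1 replicate 2 (0.0602). KIF13B had 46.12, 51.06 and 52.12 TPM against 43.13, 40.63 and 42.82 TPM (-0.23, SE 0.076, adjusted p = 0.0292). It too showed no overlap, and its call was lost without siNC replicate 2 (0.104) or 3 (0.0974) and without siAHCYL1 replicate 2 (0.114) or 3 (0.06). KIF21B, a low-abundance motor that pauses microtubule growth, had 2.10, 2.94 and 2.26 TPM against 0.54, 0.32 and 0.43 TPM (-1.26, SE 0.18, adjusted p = 0.000378). KIF21B met the filter on low values only through its siNC libraries, so its test is conditional on the group in which it is high. With no filter the value was the same (-1.26, adjusted p = 0.000468). Its relative KIF21A had 26.23, 22.25 and 20.34 TPM against 20.55, 17.42 and 17.79 TPM, short of the threshold (-0.29, adjusted p = 0.0608). KIF21A did pass without siNC replicate 3 (0.0341), without siAHCYL1 replicate 1 (0.0311), without replicate 1 of both groups (0.0452), with median-of-ratios scaling (0.0149), with quantile normalization (0.0101) and with a replicate block (0.0144).

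The conventional kinesin heavy chains, which carry many cargoes, did not pass. KIF5C had 120.28, 116.49 and 112.27 TPM against 137.09, 120.13 and 116.29 TPM (0.09, adjusted p = 0.325). KIF5B had 114.99, 98.14 and 93.24 TPM against 117.13, 99.52 and 93.63 TPM (0.02, adjusted p = 0.901), nearly the same library by library. The ratio of KIF5C to KIF5B was 1.15 ± 0.087 in siNC and 1.21 ± 0.036 in siAHCYL1 (n = 3), and its groups overlapped. KIF7, a regulator of hedgehog signalling at the cilium tip, KIF16B, an early endosome motor, KIF26B and KIF27 had log2 fold changes from -0.06 to 0.02 and overlapping groups. KIFC3 (-0.14) did not pass, with groups that did not overlap, and passed with median-of-ratios scaling (adjusted p = 0.039) and quantile normalization (0.0237).

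The 10 members under the filter were low, at most 1.29 TPM in any library. KIF2B, KIF6 and KIF19 were listed at 0 in every library. KIF4B, KIF9, KIF12, KIF17, KIF26A, KIF5A and CENPV had highest values of 0.13, 0.40, 0.68, 0.06, 1.23, 1.29 and 0.15 TPM. KIF26A had 0.79, 1.13 and 1.23 TPM in siNC against 0.70, 0.66 and 0.45 TPM in siAHCYL1, without overlap, and was not tested.

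**Figure D4:**
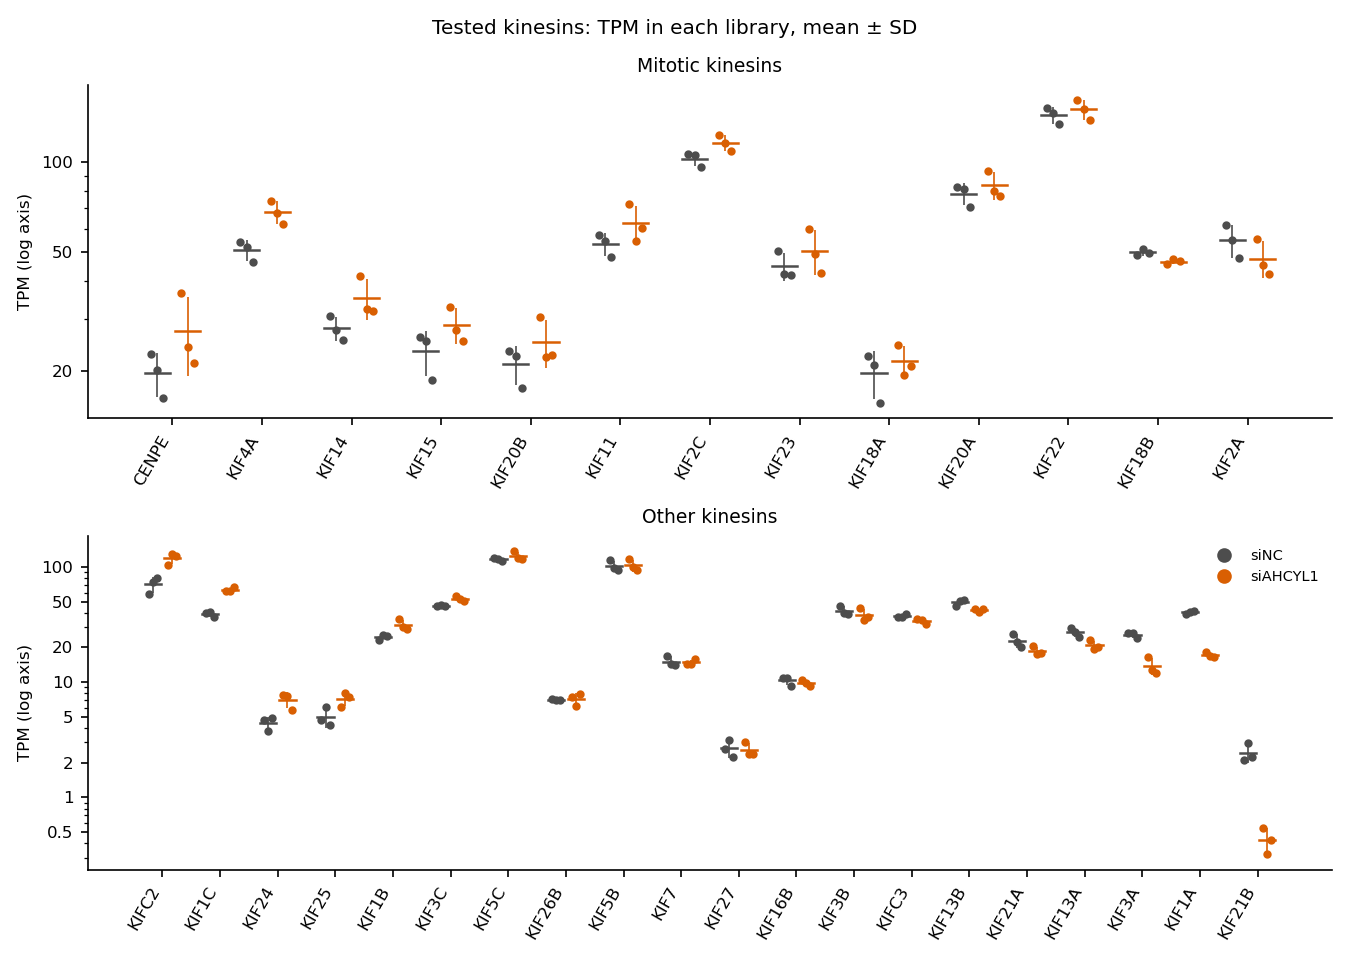
TPM in each library (log axes) for the tested mitotic kinesins (top) and the other tested kinesins (bottom), each ordered by log2 fold change; grey points are siNC and orange points siAHCYL1 libraries, with lines for the mean and SD (n = 3). KIF1A, KIF3A and KIF21B at the right end of the lower panel lie well below their controls, and KIFC2 and KIF1C at the left end above them.

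Ratios between partners or paralogs were formed for 11 pairs, chosen after the values were seen. The groups did not overlap in 8 of the 11. Each of those 8 had an exact permutation p of 0.1, adjusted over the 11 pairs to 0.138, so none can reach 0.05 in this design. Besides the pairs above, the ratio of PTTG1 to CDC20 went from 1.49, 1.43 and 1.49 to 1.22, 1.1 and 1.11. That of CDC20 to MAD2L1 went from 1.21, 1.33 and 1.3 to 1.41, 1.38 and 1.41.

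**Figure D5:**
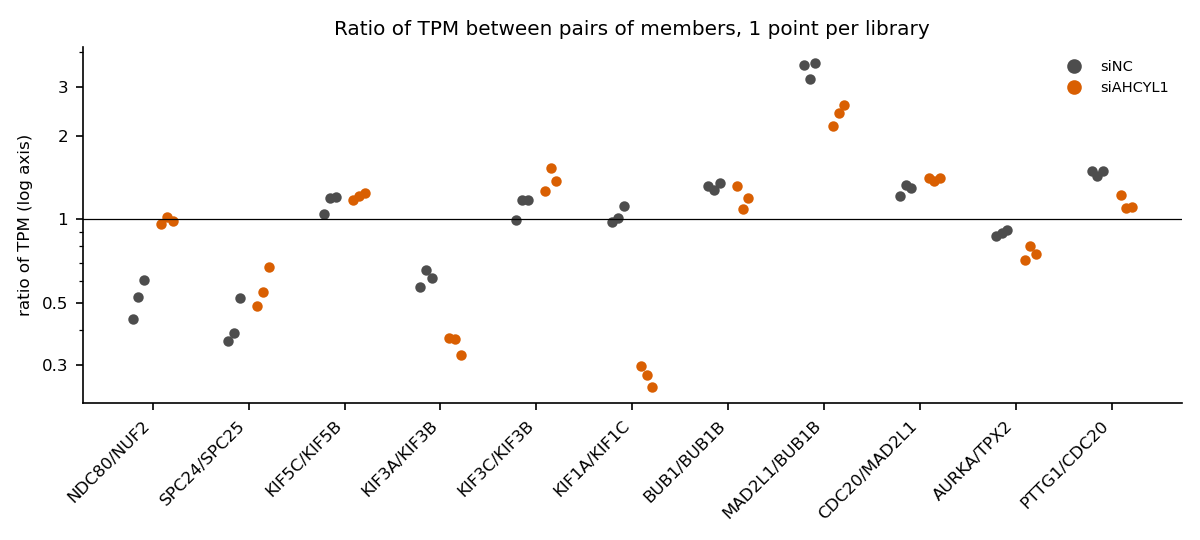
Ratio of TPM between 11 pairs of members (log axis), 1 point per library, grey for siNC and orange for siAHCYL1, with a line at equal TPM. The ratio of NDC80 to NUF2 moves up to the line and that of KIF1A to KIF1C moves down from it, while KIF5C to KIF5B overlaps between the groups.

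The sum of all 79 members was 4839.8, 4528.2 and 4343.4 TPM in siNC and 4896.0, 4510.9 and 4368.3 TPM in siAHCYL1, so rises and falls balanced in total. The sum of mitotic kinases, spindle assembly and anaphase regulators was 1391.4 to 1561.2 TPM in siNC and 1197.3 to 1345.8 TPM in siAHCYL1. The sum of the inner kinetochore was 487.5 to 543.2 TPM against 548.0 to 598.7 TPM, and that of the outer kinetochore 236.5 to 304.2 TPM against 312.1 to 371.6 TPM. The chromosomal passenger sum was 356.2 to 373.3 TPM against 389.6 to 411.6 TPM. That of transport and other kinesins was 681.1 to 705.2 TPM against 711.5 to 762.3 TPM. The groups overlapped in the sums of mitotic kinesins (628.2 to 738.7 against 700.8 to 851.2 TPM) and spindle checkpoint genes (545.4 to 595.8 against 494.9 to 551.9 TPM). They also overlapped in the sum of CENPJ and CENPV. These sums are descriptions and were not tested.

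Genes of the same machinery that the symbols do not cover are given by list. Of all genes tested, 30.4% rose and 21.2% fell, and no list was tested as a set against these shares. Of 16 further kinetochore genes, 7 rose and 1 fell. DSN1 of the MIS12 complex rose (46.4 ± 4.28 to 68.0 ± 4.30 TPM, 0.54, adjusted p = 0.000739). The other genes of that complex, MIS12 (0.05, adjusted p = 0.719), PMF1 (-0.04, 0.753) and NSL1 (-0.11, 0.497), did not pass. SKA2 (0.57) and SKA1 (0.62), which track microtubule ends with NDC80, rose, while SKA3 did not pass (0.03, adjusted p = 0.879). The fall was in OIP5 (-0.47, adjusted p = 0.0144). CASC5, the earlier symbol of KNL1, had 20.65, 15.93 and 13.75 TPM against 26.80, 18.80 and 19.09 TPM, short of the threshold (0.34, adjusted p = 0.118). CASC5 passed without siNC replicate 1 (0.50, adjusted p = 0.0304), with a replicate block (0.00849) and when both first replicates were left out (0.0268). STRA13 and APITD1, listed as earlier symbols of CENPX and CENPS, rose (0.63, adjusted p = 0.00533, and 0.34, adjusted p = 0.0384). The call of APITD1 was lost with no filter (0.0685), quantile normalization (0.0689), without siNC replicate 1 (0.053), 2 (0.0883) or 3 (0.0969), without siAHCYL1 replicate 1 (0.0929) or 3 (0.0741) and when both first replicates were left out (0.075).

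Of 8 further genes listed with the checkpoint, not all of them part of it, 4 rose and 1 fell. MAD1L1, the anchor of MAD2L1 at kinetochores, rose from 47.9 ± 1.40 to 66.9 ± 2.02 TPM (0.47, adjusted p = 0.000341). ZW10, a subunit of the complex that brings dynein to kinetochores, rose (0.93), and MAD2L2 fell (-0.24).

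Of 18 genes of the anaphase-promoting complex and its regulators, 7 rose and 2 fell. The subunits ANAPC13 (0.63), ANAPC7 (0.53) and CDC26 (0.43) rose. The subunit CDC16 (-0.37, adjusted p = 0.00224) and the regulator UBE2S (-0.28, adjusted p = 0.00386) fell. CDC20 and PTTG1, an activator and a substrate of the complex, fell as well. Of 14 cohesin, separase and protector genes, 2 rose and 0 fell: SMC1A, a cohesin ring subunit (0.53), and ESPL1, the separase that PTTG1 inhibits, from 30.5 ± 1.99 to 41.4 ± 2.31 TPM (0.43, adjusted p = 0.00218). Of 8 condensin genes, 3 rose and 0 fell, NCAPD3 (0.30), NCAPH2 (0.25) and NCAPD2 (0.27). Leaving out siNC replicate 2 ended the calls of NCAPD3 (adjusted p = 0.0514), NCAPH2 (0.0544) and NCAPD2 (0.0656). Those of NCAPH2 and NCAPD2 were also lost with quantile normalization (0.07 and 0.0683). NCAPH2 lost its call without siAHCYL1 replicate 2 (0.0586), and NCAPD2 with robust moderation (0.0512), without siNC replicate 3 (0.075) and without siAHCYL1 replicate 1 (0.055).

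Of 18 further spindle genes, 5 rose and 1 fell, with NUMA1, which anchors spindle poles (0.54), HAUS4 of the augmin complex (0.90) and TACC3, an AURKA substrate on kinetochore fibres (0.32), higher. The fall was in HAUS6, also of augmin (-0.39, adjusted p = 0.0149). Of 6 cytokinesis genes, CEP55 of the abscission machinery rose (0.40, adjusted p = 0.06 without siNC replicate 3) and ECT2, the activator of RhoA at the division plane, fell (-0.43). Of 11 transcription factors and MuvB partners that act on CHR promoters, 4 rose and 0 fell: RBL1 (p107) rose from 13.6 ± 2.61 to 28.9 ± 3.38 TPM (1.04, adjusted p = 0.000254), RBL2 (p130) from 28.1 ± 0.609 to 52.0 ± 3.75 TPM (0.86, adjusted p = 2.67e-05), and RBBP4 (0.42) and MYBL2 (0.42) rose. FOXM1 had 119 ± 9.29 against 127 ± 9.99 TPM, short of the threshold (0.10, adjusted p = 0.355).

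Of the partners of transport kinesins, 5 of 13 rose and 3 fell. KIFAP3, the non-motor subunit of the KIF3 complex, rose from 37.4 ± 3.47 to 61.8 ± 5.82 TPM (0.71, adjusted p = 0.000254) while KIF3A fell. The kinesin light chain KLC1 rose (0.48), and the low-level light chain KLC3 fell from 5.35 ± 1.54 to 1.68 ± 0.739 TPM (-1.25, adjusted p = 0.00206). MAPK8IP1, a scaffold that links cargo to light chains, fell from 27.4 ± 3.13 to 10.6 ± 0.478 TPM (-1.29, adjusted p = 1.44e-05). Of 21 genes of dynein, the motor that runs in the opposite direction to most kinesins, and of dynactin, 8 rose and 3 fell. ACTR1B (0.97) and the light chain DYNLL2 (0.50) rose, and NDEL1, a dynein regulator, fell (-0.70). The more abundant light chain DYNLL1 fell from 444 ± 8.91 to 359 ± 31.9 TPM (-0.31, adjusted p = 0.00526).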

How the data were processed

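RNA-seq values of 6 HMCB libraries were used, siNC and siAHCYL1 with 3 each. The authors deposited 1 table of TPM per gene symbol. GRCh38, RSEM and STAR are named per the submitters' processing notes, while versions, roles and gene annotation were not given in the sources used here. Per the labels' protocols the libraries were non-directional. Each library summed to 1000000 TPM within rounding, so depth is unknown.

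The fit was limma 3.58.1 (R 4.3.3; moderated, two-sided, with intensity trend) on log2(TPM + 1), for genes that reached 1 TPM in 3 or more libraries, with Benjamini-Hochberg adjustment over all 13266. A gene changed at an adjusted p under 0.05. Fold changes on this scale understate those of low genes, and each "-fold" value in the text is the ratio of mean TPM. Alternatives changed the scaling (quantile normalization or median-of-ratios), the filter (none, or 5 TPM), the pseudocount (0.1) or the moderation (robust, no trend), added a replicate block, or left out each library in turn; a fit without replicate 1 of both groups was added after seeing the data.

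Values in every library are given for changed members with a mean of at least 5 TPM in a group and for up to 3 of the most abundant members per class that did not pass. KIF21B, CENPE, TTK, KIF21A and the genes of the related lists named beyond 3 per list (APITD1, STRA13, MYBL2, FOXM1, CASC5, CDC16, UBE2S, DYNLL1, HAUS6, KLC3, OIP5, MIS12, PMF1, NSL1, SKA3) were added after their values were seen. Refits were not examined for CDC16, UBE2S, DYNLL1, HAUS6, KLC3, OIP5, MIS12, PMF1, NSL1 and SKA3. Members, lists and the 11 ratios were chosen with earlier results of these data known. Positions are from RefSeq GRCh38.p14, exon overlaps from GENCODE 29 (GRCh38) and promoter sequences from RefSeq. Of the changed members, 9 have exon overlap with a gene on the other strand.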

Additional observations from a re-analysis of the deposited data

How the results depend on the processing

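With TPM alone, no limit from depth can be given. Of the 30 changed members, 17 kept their call in every refit that tested them (14 refits, 9 of them for KIF21B, which met the filter only through siNC) and 13 lost it in at least 1, and 17 members that did not pass did so in at least 1; 0 calls reversed. The count of rises among members was 19, and 12 with quantile normalization; the count of falls was 11, and 17 with quantile normalization, which moved the median of all genes from 0.06 to -0.01. With 1 library left out, rises ranged from 11 (without siNC replicate 2) to 19 and falls from 8 to 14. The median over members ranged from 0.01 to 0.17 and the count of all changed genes from 5566 to 7919 across refits. AHCYL1 stayed past the threshold in each. Deviations from the group mean correlated at 0.233, 0.001 and 0.154 between libraries of the same number. The siNC replicates 1 and 3 correlated best with the siAHCYL1 library of their own number, and siNC replicate 2 with siAHCYL1 replicate 1. Whether the numbers pair the samples is thus not known, and the reported fit has no block. With the replicate block, 28 members rose and 15 fell and 7919 of all genes changed. The 13 members that passed with the block and not in the reported fit were SPC25 (adjusted p = 0.0166), CENPF (0.031), CENPT (0.0473), BUB1B (0.02), TPX2 (0.00287), CENPE (0.00584), KIF2C (0.0129), KIF11 (0.0399) and KIF15 (0.0184), all higher, and CENPO (0.0458), CENPU (0.0233), KIF2A (0.0169) and KIF21A (0.0144), all lower. In that fit 4 of 5 outer kinetochore genes rose, and 6 mitotic kinesins rose and 1 fell. CASC5 also passed (0.00849). For changes of call the cause was not tested.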
